A study of Mus musculus with 10 samples.

Results

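The control embryos of this mouse series were described on their own, gene by gene, to set out which transcripts an unperturbed population of Wnt1-Cre-marked cells holds at embryonic day 10.5. They were taken by their genotype label and make up 5 of the 10 libraries of the study. The study set embryos in which a stabilised form of p53 was switched on in the neural crest beside these littermates, whose Trp53 gene was normal. The other 5 libraries were not used here. Each control embryo carried Wnt1Cre and the R26mTmG reporter, with the p53 label +/+, on a mixed 129/Sv-C57BL/6 background. R26mTmG is a reporter that turns from red to green membrane fluorescence once Cre has acted, so the green cells collected by flow sorting were Wnt1-Cre descendants. One library was made from the polyadenylated RNA of the sorted cells of each single embryo, and the embryos are numbered 1 to 5 after their replicate labels. Wnt1-Cre is active in the dorsal neural tube, before and while crest cells leave it, so the sorted cells can hold cells that stayed in the neural tube. Which embryos shared a litter is not given in the labels.

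The neural crest is a transient population that leaves the dorsal neural tube and migrates through the embryo. In the head it forms the mesenchyme of the face and pharyngeal arches, and along the body it gives sensory and autonomic neurons, their glia and pigment cells. Crest cells are specified by transcription factors such as Sox10, Foxd3, the Tfap2 and the Snai families, and arch mesenchyme is patterned by homeobox genes such as the Dlx, Alx, Prrx and Msx families. Hox genes, used in order along the body axis, mark the level from which a cell came.

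Depth ran from 12368058 to 23514828 counts per embryo, and 3 counts corresponded to 0.128 to 0.243 CPM, the usual scaling of counts to a common library total. Of 49671 listed genes, 24495 had a count in a control embryo. Levels within an embryo were compared as TPM, in which each count is first divided by the length of the exons of the gene and then scaled to the same total, and a gene was taken as detected at 1 TPM or more in every embryo. This held for 11500 genes, 23.2% of those listed, and for 10371 (47.6%) of the 21811 protein-coding genes. The detected share of each gene list below is to be read beside this 47.6%. Values of single embryos are given in the order of embryos 1 to 5, and means are over these 5 embryos with the SD. No test of one gene against another is given, since a within-embryo comparison of 2 genes over 5 embryos cannot reach a two-sided exact permutation p under 0.0625. A gene is instead said to lie above another where it did so in 5 of 5 embryos. This takes in the spread between embryos but not the choice of gene length, which all 5 embryos share. With the longest transcript as gene length, 108 of 283 named levels in TPM moved by more than 1 SD. The orders and ratios between genes were not computed again with that length. Log2 CPM correlated between embryos with Pearson's r of 0.962 to 0.987 across genes, which are not independent replicates. As a check for duplicate libraries, chi-square of the counts divided by its degrees of freedom ran from 16.0 to 67.6 between embryos. This sets the embryos against counting error only, which separate animals exceed in any case.

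All 6 genes used as markers of the population were detected, at levels that differed widely. Tubb3, a tubulin of neurons, was the highest at 275, 303, 307, 397 and 359 TPM. Twist1, a factor of cranial crest mesenchyme, followed at 96.0, 108, 81.2, 71.8 and 82.3 TPM. Both were high in each embryo, and the order of Tubb3 over Twist1 held in 5 of 5. Prrx1, a homeobox gene of mesenchyme, stood at 18.6, 24.3, 17.4, 13.3 and 14.3 TPM and Sox10, the factor of migrating crest and glia, at 12.2, 13.9, 20.4, 14.5 and 15 TPM. Tfap2a, an early crest specifier, was at 6.38, 5.16, 4.99, 3.55 and 4.12 TPM, and Dlx2, an arch patterning gene, at 2.97, 3.80, 6.03, 3.90 and 3.45 TPM. Tfap2a and Dlx2 were therefore the low ends of the marker set in each embryo, while mesenchymal and neuronal markers lay above them. The markers of a crest-derived population were thus present in each embryo, together with neural tube genes. In a bulk library, fewer cells of a type and less RNA per cell cannot be told apart, which holds for every level given here.

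Ribosomal protein genes led the counts. They took 18.1 to 18.4% of all counts in each embryo, 15 of the 20 most abundant genes by CPM were ribosomal protein genes, and 91 of the 96 listed were detected. By mean CPM, Rpsa, a protein of the small ribosomal subunit, was first at 15450.1 ± 1619 CPM, followed by Rpl41 at 13702 ± 642 CPM, Rplp1 at 12487 ± 1013 CPM and Rps24 at 11639.8 ± 831 CPM. This order did not hold in each embryo. Rpsa lay below Rpl41 in embryo 4 (12883 against 13938 CPM), and Rpl41 below Rplp1 in embryo 3 (13246 against 13816 CPM). The 10 most abundant genes held 9.30 to 10.1% of counts and 407 to 460 genes held 50% of counts. The other 5 of the 20 were Rack1, a scaffold protein of the ribosome (4899.9 ± 136 CPM), Ptma, a chromatin-associated acidic protein (4741 ± 174 CPM), the cytoplasmic actins Actg1 (4408 ± 521 CPM) and Actb (4034 ± 497 CPM), and the elongation factor Eef1a1 (3598 ± 756 CPM). Eef1a1 varied most of these, from 2508 CPM in embryo 1 to 4317 CPM in embryo 5. Haemoglobin genes took 0.0853 to 0.446% of counts.

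**Figure D1:**
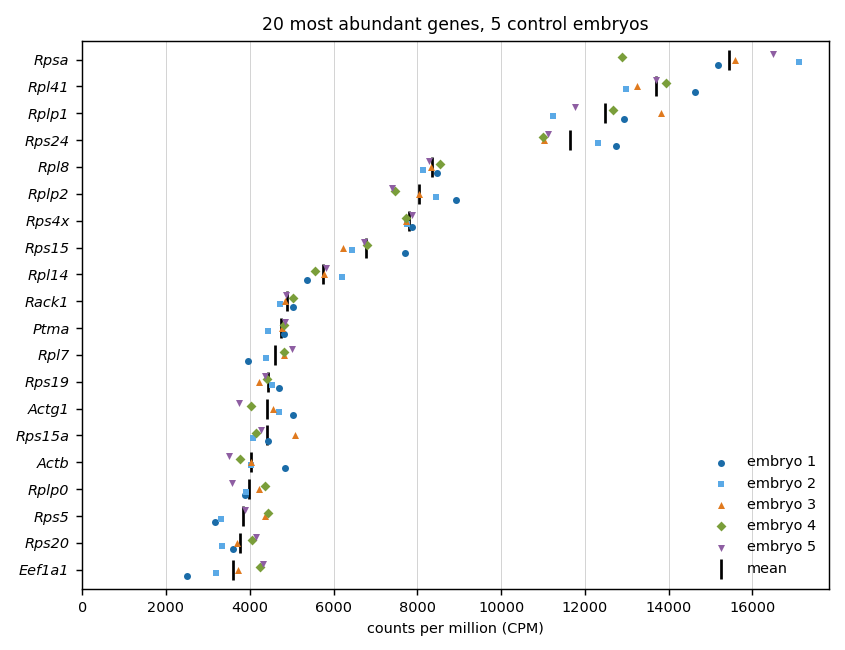
CPM (linear axis from 0) of the 20 genes with the highest mean, one symbol per control embryo and a black bar at the mean. Rpsa is the highest on average and Eef1a1 the lowest of the 20.

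Per length, the order changed. Rplp1 led at 57519 ± 4489 TPM, above Rpl41 at 26957 ± 817 TPM and Rps15 at 24742 ± 1719 TPM, and Rpsa was the fifth, at 11221 ± 1336 TPM. Among the 20 highest by TPM that make no ribosomal protein were Ndufa2, a subunit of respiratory complex I, at 7995 ± 1368 TPM, Ptma at 7454 ± 195 TPM, and Selenow, a small selenoprotein, at 6046 ± 960.4 TPM. Crabp1, which binds retinoic acid in the cytoplasm and is a known marker of crest cells, was also among them, at 3462, 4293, 5712, 5303 and 5302 TPM. Crabp1 was lowest in embryo 1, with an SD of 920 TPM around a mean of 4814 TPM. The related Crabp2 (424 ± 137 TPM), named here after its values were seen, lay below it in each embryo, with a Crabp1 to Crabp2 ratio of 9.82 to 15.8.

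Mitochondrially encoded genes, by contrast, took 0.0983 to 0.175% of counts. Of the 13 protein-coding genes of the mitochondrial genome, 7 had a mean of 10 CPM or more. The highest, mt-Nd5, a subunit of complex I, varied between embryos, at 139, 398, 732, 182 and 254 CPM. It was highest in embryo 3 and lowest in embryo 1. mt-Co1, a subunit of cytochrome oxidase, stood at 158 ± 45.8 CPM, while mt-Co3 of the same enzyme stood at 2.99 ± 0.525 CPM and mt-Atp6 at 0.955 ± 0.469 CPM. Gm28438, a nuclear pseudogene on chromosome 1, shares 99.0% of its 31-base words with mt-Nd3 and stood at 2.36, 4.04, 36.1, 6.95 and 7.04 CPM, above the 0.232 ± 0.216 CPM of mt-Nd3 itself. It was highest in embryo 3, as mt-Nd5 was. How reads with several possible places in the genome were counted is not given in the sources used here, and its part in these low levels was not tested.

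Several ribosomal protein genes differed sharply between embryos, and these genes have nearly identical copies elsewhere in the genome. Rpsa-ps10 is annotated as a processed pseudogene of Rpsa. Over the 885 coding bases of Rpsa the pseudogene differed at 6 positions, an identity of 99.3%. Rps3a1, another protein of the small subunit, and its annotated pseudogene Rps3a3 differed at 8 of 791 aligned bases. The middle 120 bases of the longest coding exon of both genes (exon 4 in each) are shown with the matching stretch of the copy, from the GENCODE M21 transcripts on GRCm38, to show how little separates them. Each is written 5′ to 3′ on the strand of its gene, in lower case with the single differing base in capitals. Rpsa lies at chr9:120130181-120130300 on the plus strand, Rpsa-ps10 at chr3:150073108-150073227 on the minus strand, Rps3a1 at chr3:86139085-86139204 on the minus strand and Rps3a3 at chr13:108671001-108671120 on the plus strand.
Rpsa: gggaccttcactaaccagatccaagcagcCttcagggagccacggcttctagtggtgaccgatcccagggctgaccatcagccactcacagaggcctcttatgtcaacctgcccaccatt
Rpsa-ps10: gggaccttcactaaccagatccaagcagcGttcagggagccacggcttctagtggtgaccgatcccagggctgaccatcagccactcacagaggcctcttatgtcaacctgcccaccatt
Rps3a1: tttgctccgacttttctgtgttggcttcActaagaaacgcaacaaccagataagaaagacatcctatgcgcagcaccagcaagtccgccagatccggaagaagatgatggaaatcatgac
Rps3a3: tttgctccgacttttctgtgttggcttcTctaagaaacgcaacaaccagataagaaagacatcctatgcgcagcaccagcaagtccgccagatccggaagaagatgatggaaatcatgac

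Rpsa-ps10 stood at 7052, 708, 707, 6392 and 719 CPM. Embryos 1 and 4 were high and the other 3 embryos lay close together, far below them. Rpsa itself stood at 15188, 17107, 15590.5, 12883 and 16483 CPM and was lowest in embryo 4, but the sum of both varied no less than Rpsa alone, with a SD of 12.5% of the mean against 10.5%. Rps3a1 stood at 378, 1819, 333, 1878 and 337 CPM, high in embryos 2 and 4 only. Rps3a3 ran the other way, at 2225, 1162, 2352, 1152 and 2339 CPM. Rps3a1 summed with the 5 genes that share at least 20% of its 31-base words gave 2734, 3082, 2861, 3139 and 2867 CPM, a SD of 5.74% of the mean against 86.6% for Rps3a1 alone. The switch between embryos was thus much smaller in the sum than in the gene. Rpl29, of the large subunit, stood at 3.31, 796, 846, 4.36 and 847 CPM, close to nothing in embryos 1 and 4. With its 9 copies it summed to 1087, 1361, 1500, 1134 and 1482 CPM. Gm8730, a pseudogene of the stalk protein gene Rplp0, stood at 41.97, 38.2, 47.6, 40.9 and 954 CPM, high only in embryo 5, where Rplp0 was lowest, at 3890.4, 3913, 4223, 4375 and 3566 CPM. For Rps2 (220.2, 345, 446, 1519.7 and 532 CPM) and the chaperone Hspa8 (36.7, 362, 780.4, 1014 and 608 CPM), the sum with copies still varied, with a SD of 66.1 and 67.1% of the mean against 84.9 and 67.4% for the gene alone. Of the genes with a mean of 10 CPM or more, 8115 had a transcript sequence in GENCODE M21, and 546 of these (6.73%) shared at least 20% of their 31-base words with another gene, and of the 107 among the 8115 with a SD over 50% of the mean, 25 (23.4%) did. The levels of these genes and their copies are uncertain singly.

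**Figure D2:**
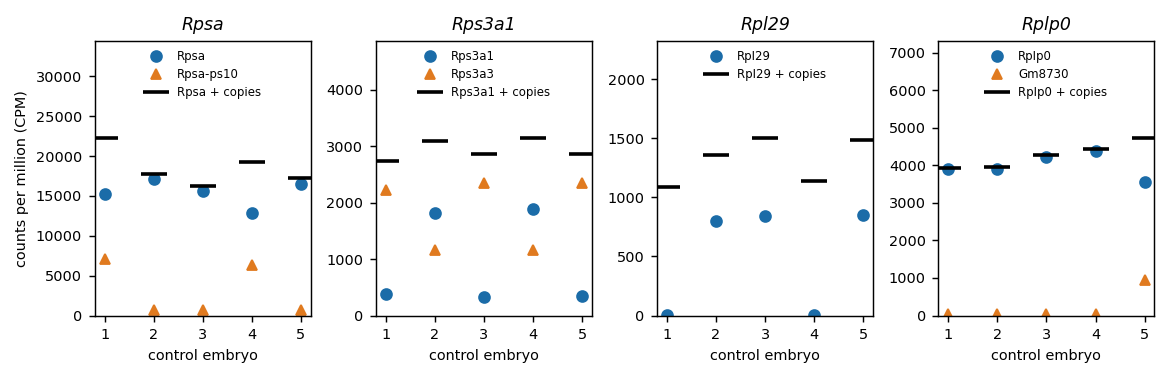
CPM (linear axes from 0) of 4 ribosomal protein genes, blue circles, in control embryos 1 to 5, with a pseudogene copy as orange triangles and the sum of the gene and all its copies as black bars. Rpl29 is near 0 in embryos 1 and 4 and Rps3a1 is high only in embryos 2 and 4, while their sums vary less.

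Of 773 listed transcription factor genes 439 (56.8%) were detected, against 171 of 475 receptor genes (36.0%) and 84 of 245 ligand genes (34.3%), beside the 47.6% of all protein-coding genes. The median level of the detected transcription factors, 7.66 TPM, was below the 11.98 TPM of all detected protein-coding genes. Mbd3, a subunit of the NuRD chromatin repressor, was the highest at 985, 1001, 1025, 985 and 984 TPM, nearly the same in each embryo. Hes6, a bHLH protein that acts against Hes1 in neurogenesis, followed at 432, 412, 419.9, 453 and 430.1 TPM, and the E-box factor Usf1 at 347, 342, 298, 305 and 316 TPM. The order Mbd3 over Hes6 over Usf1 held in 5 of 5 embryos. Sox11, a factor of immature neurons and mesenchyme, was next at 268 ± 38.4 TPM but was not separated from Usf1, which it exceeded in embryo 3 alone. Below these came Maz (222 ± 21.3 TPM), the inhibitor of bHLH factors Id1 (219.5 ± 37.5 TPM), the stress factor Atf4 (171 ± 34.7 TPM), the Notch target Hes5 (149 ± 36.9 TPM) and Jund (142 ± 9.72 TPM). From Hes5 down to Sox4 the ranks were mixed, and no neighbouring pair kept its order in 5 of 5 embryos.

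Factors of tissue identity stood beside these general factors in the top 30. Nfatc4 (141 ± 56.7 TPM) and Tbx2 (139 ± 51.4 TPM), a T-box repressor of the arches and otic region, were highest in embryos 1 and 2. Hmx1, a homeobox gene of the craniofacial mesenchyme and sensory ganglia, reached 125 ± 19.04 TPM, and Tead2, a partner of Yap, 115 ± 14 TPM. Nhlh2, a bHLH gene of early neurons, reached 79.7 ± 13.7 TPM. Also in the top 30 were Prrx2, Dlx6, Msx1, Id3, Gsc, Twist1 and Barx1, whose levels are given in other paragraphs. Others were factors found in many cell types, such as Tcf3 (132 ± 14.3 TPM), Foxp4 (114 ± 16.9 TPM), Pbx2 (106 ± 4.08 TPM) and E2f1 (105 ± 6.82 TPM). Of the same kind were Nfyc (77.8 ± 2.44 TPM), Usf2 (76.5 ± 4.91 TPM), Creb3 (66.4 ± 13.5 TPM) and Srf (63.5 ± 8.53 TPM). Sox4 was at 27.99, 114, 129, 123.6 and 119 TPM. Embryo 1 was set apart from the other 4 there, and 54.6% of the exonic bases of Sox4 overlap another annotated gene. By family, bHLH genes had the largest summed level (2291 TPM, 54 of 98 detected), E2F genes were all detected (10 of 10), and 16 of 47 nuclear receptors were detected. The Pax family was low, with 5 of 9 genes detected and a summed level of 26.9 TPM.

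Neural crest specifier genes were nearly all present. Of 22, 20 were detected and none had a mean under 1 TPM, with a summed level of 436, 564, 568, 477 and 496 TPM (mean 508 ± 57.3 TPM). Embryo 1 had the lowest sum and embryos 2 and 3 the highest. The sum was led by Msx1, a homeobox gene of crest and dorsal neural tube, at 75.9, 141, 127, 96.4 and 100.2 TPM, Id3 at 106 ± 25.3 TPM and Twist1, given above. These 3 lay above Sox9, the factor of crest and cartilage, at 39.2 ± 9.43 TPM, in 5 of 5 embryos, and Sox9 lay above Zic1 (19.8 ± 2.84 TPM), a gene of the dorsal neural tube and crest. Snai2 (31.9, 25.2, 13.8, 14.2 and 12.1 TPM) and Snai1 (19.1, 13.3, 8.49, 11.8 and 10.9 TPM), repressors of E-cadherin in crest delamination, were highest in embryo 1. Tfap2b (18.4 ± 3.23 TPM) exceeded Tfap2a in each embryo, by 3.47 to 4.32 times. Foxd3, an early crest factor, was at 11.4, 8.27, 16.8, 8.29 and 9.56 TPM. Mycn stood at 18.1 ± 3.15 TPM, Id2 at 17.3 ± 3.42 TPM, Pax3 at 6.13 ± 0.514 TPM, Ets1, a cranial crest gene, at 2.69 ± 0.250 TPM and Pax7 at 2.12 ± 0.400 TPM. Myc and Sox8 fell short of detection because of embryo 1 alone, at 0.885, 1.61, 4.96, 2.94 and 3.63 TPM and 0.609, 1.89, 2.86, 2.15 and 2.41 TPM.

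**Figure D3:**
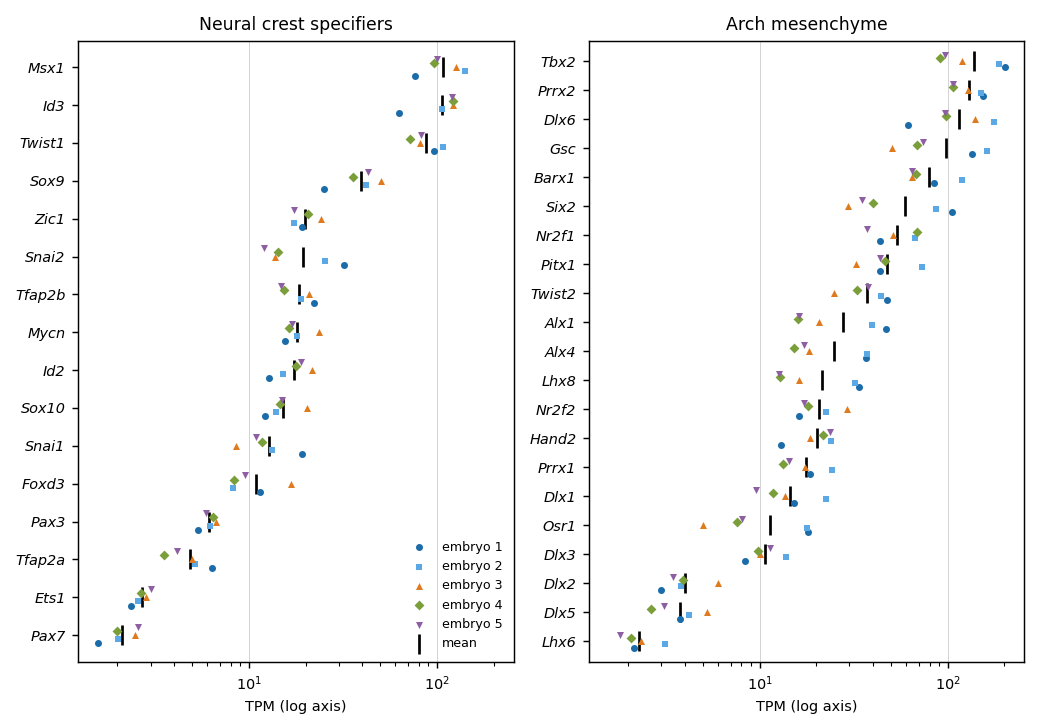
TPM (log axes) of the detected neural crest specifiers (left) and arch mesenchyme genes (right) named in the text, in each control embryo, with black bars at the mean. Msx1, Id3 and Twist1 lead the left panel, and in the right panel embryos 1 and 2 (blue) lie to the right of the others for Tbx2, Gsc, Six2, Alx1, Alx4 and Osr1.

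Genes of pharyngeal arch and facial mesenchyme were present in each embryo. Of 34, 27 were detected, and 6 had a mean under 1 TPM, among them Hand1 and Dlx4. The summed level was 1159, 1374, 856, 803 and 776 TPM (mean 994 ± 262 TPM). Embryos 1 and 2 were high and did not overlap the other 3. Prrx2, a homeobox gene of mesenchyme, was at 154, 151, 128, 107 and 107 TPM, 6.20 to 8.29 times its relative Prrx1. Gsc, a gene of the lower jaw and middle ear, was at 134.1, 161, 50.8, 68.5 and 74.2 TPM and Barx1, a gene of the proximal arches, at 84.2, 118, 64.3, 67.6 and 64.5 TPM. Six2, found in frontonasal mesenchyme, was at 105, 86.8, 29.5, 40.2 and 35 TPM. Gsc and Six2 were highest in embryos 1 and 2 and lower in embryos 3, 4 and 5, with no overlap. The frontonasal homeobox genes Alx1 (27.9 ± 14.4 TPM) and Alx4 (24.9 ± 11.03 TPM) were detected, as were the maxillary and mandibular genes Pitx1 (47.8 ± 14.9 TPM), Lhx8 (21.5 ± 10.6 TPM) and Lhx6 (2.29 ± 0.501 TPM). Hand2, a gene of the distal arch and of sympathetic neurons, stood at 13.03, 23.9, 18.6, 21.8 and 23.7 TPM, and its relative Hand1 was below 1 TPM in each embryo. Twist2 (37.4 ± 8.998 TPM) lay below Twist1 in 5 of 5 embryos, at a ratio of 2.02 to 3.25 between them. Nr2f1 stood at 53.5 ± 13.9 TPM and Nr2f2, its relative among the orphan nuclear receptors, at 20.6 ± 5.39 TPM.

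The Dlx homeobox genes, which are arranged in linked pairs and set the dorsal to ventral pattern of the arches, were unequal. Dlx6 was at 61.1, 177, 139.5, 98.5 and 97.1 TPM and Dlx5, its neighbour on chromosome 6, at 3.75, 4.20, 5.25, 2.65 and 3.10 TPM. Dlx6 exceeded Dlx5 by 16.3 to 42.1 times in the 5 embryos. Dlx6 was highest in embryo 2 and lowest in embryo 1, whereas Dlx5 was highest in embryo 3. Dlx1 (14.6 ± 4.96 TPM) exceeded its linked partner Dlx2 in 5 of 5 embryos, Dlx3 stood at 10.7 ± 2.06 TPM, and Dlx4 at 0.508 ± 0.196 TPM was not detected. For Dlx6, 4.38% of exonic bases overlap another annotated gene, and the strand setting that would assign reads over these bases is not known here.

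The summed Hox level was largest in paralogue groups 4 to 8, which also hold the most genes of the groupings used here. The sums are not levels per gene. Of 39 Hox genes 20 were detected (51.3%), near the 47.6% of all protein-coding genes. All 39 had at least a count, and none reached 100 TPM. Paralogues 4 to 8 held most of the summed Hox level, with 13 of 15 detected and 172, 240, 254, 270 and 257 TPM (mean 238 ± 38.8 TPM). All 4 paralogues of group 9 were detected, with a sum of 79.8 ± 16.0 TPM. Of the 8 genes of groups 1 to 3, which are used in the hindbrain and its crest, 2 were detected, with a sum of 34.8 ± 10.6 TPM. Of the 12 genes of groups 10 to 13, used at the tail end and in distal limbs, 1 was detected, Hoxd10 at 11.1, 7.86, 3.11, 8.48 and 8.003 TPM. Embryo 3 had the lowest Hoxd10 and the lowest sum of groups 10 to 13 (6.01 TPM against 18.5 to 25.7 TPM in the others), and the highest sum of groups 1 to 3 (49.6 TPM against 24.1 to 38.1 TPM).

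The Hoxb cluster on chromosome 11 was the highest of the 4 clusters in each embryo, with a sum of 128, 182, 207, 219 and 206 TPM. Hoxb4 (25.3, 43.8, 56.3, 47.4 and 39.5 TPM), Hoxb7 (29.7, 42.6, 34.8, 46.6 and 46.9 TPM) and Hoxb9 (22.3, 34.4, 41, 46.4 and 46.4 TPM) led, and none of them exceeded another in 5 of 5 embryos. All 3 were lowest in embryo 1. Hoxb6 followed at 32.5 ± 6.36 TPM, below Hoxb9 in 5 of 5 embryos and above Hoxc9 (25.7 ± 4.67 TPM) in 5 of 5. Within the cluster the level did not follow position, since Hoxb5 (14.9 ± 2.98 TPM) and Hoxb8 (7.71 ± 2.49 TPM) lay below their neighbours in each embryo, and Hoxb2 (0.559 ± 0.231 TPM) and Hoxb3 (0.356 ± 0.236 TPM) were not detected between Hoxb1 (11.8 ± 6.19 TPM) and Hoxb4. Hoxb3 shares 52.9% and Hoxb2 27.3% of exonic bases with another annotated gene, and the part of these overlaps in the low counts was not tested. Hoxb1, a gene of the hindbrain, differed between embryos, at 3.76, 7.46, 19.5, 13.7 and 14.3 TPM, lowest in embryo 1 and highest in embryo 3. Hoxa2, which gives second-arch crest its identity, was at 17.1, 13.2, 24.1, 19.9 and 18.4 TPM and was 19.3 to 50.1 times Hoxb2. Hoxa5 (20.03 ± 5.87 TPM) and Hoxa7 (21.7 ± 5.12 TPM) were the other genes of the Hoxa cluster on chromosome 6 above 10 TPM, and Hoxa9 was at 4.19 ± 0.979 TPM. In the Hoxc cluster on chromosome 15, Hoxc4 (12.1 ± 2.56 TPM), Hoxc5 (6.85 ± 1.19 TPM), Hoxc6 (2.96 ± 0.941 TPM) and Hoxc8 (17.7 ± 2.55 TPM) were detected with Hoxc9. In the Hoxd cluster on chromosome 2, Hoxd4 (8.95 ± 2.38 TPM), Hoxd8 (6.83 ± 2.06 TPM) and Hoxd9 (11.8 ± 4.18 TPM) were detected with Hoxd10. Hoxd4 shares 52.3% of exonic bases with another gene.

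**Figure D4:**
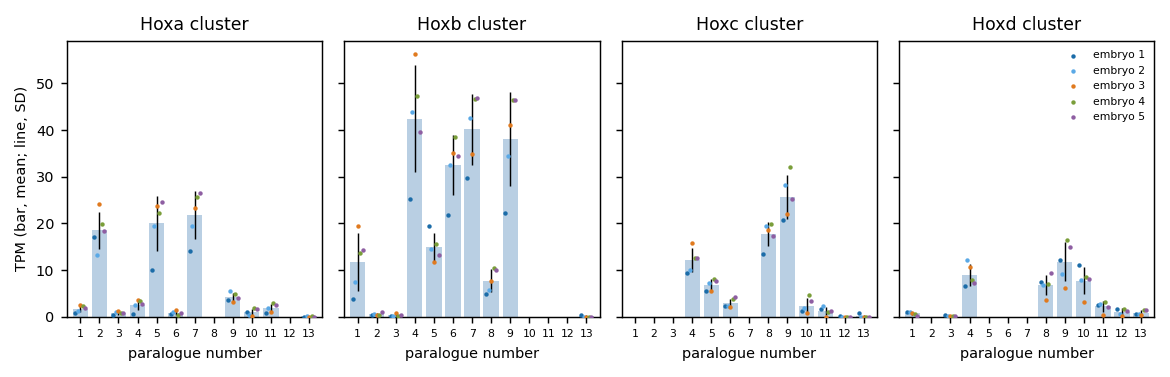
TPM of the Hox genes by cluster and paralogue number (linear axis from 0), with bars at the mean of the 5 control embryos, lines for the SD and a dot per embryo. Hoxb4, Hoxb6, Hoxb7 and Hoxb9 are the tallest bars, and groups 10 to 13 are near 0 apart from Hoxd10.

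Genes of differentiating neurons were widely detected. Of 25, 21 were, with a summed level of 1002, 1117, 934, 1162 and 1046 TPM (mean 1052 ± 90.3 TPM). The 5 sums were close to each other. Tubb3, given above, and Stmn3 (272 ± 36.5 TPM), a microtubule regulator, were the highest, ahead of the RNA-binding protein gene Elavl3 (76.7 ± 11.3 TPM) in 5 of 5 embryos. The neurofilament genes Nefm (66.4 ± 8.04 TPM), Nefl (30.7 ± 3.98 TPM) and Ina (20.4 ± 2.55 TPM) were detected while Nefh (0.368 ± 0.188 TPM), that of mature axons, was not. Gap43, a growth cone protein, stood at 63.8 ± 8.91 TPM, Stmn2 at 45.8 ± 6.66 TPM and Dcx, of migrating neurons, at 8.39 ± 1.39 TPM. The synaptic genes Snap25 (1.07 ± 0.479 TPM) and Syt1 (0.318 ± 0.220 TPM) fell short of detection. Syt4 varied, at 14.96, 9.29, 3.002, 4.29 and 2.27 TPM, with embryos 1 and 2 above the other 3.

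Genes listed for both branches of the peripheral nervous system were detected. The sorted cells can also hold neural tube cells, and which cells made these transcripts was not tested. Of 20 sensory neuron genes 13 were detected, led by Tlx2 (27.1, 48.1, 55.95, 44.6 and 46.9 TPM), a homeobox gene of cranial and spinal ganglia, and Neurog1 (36.3, 35.1, 52.3, 36.04 and 34.6 TPM), the bHLH gene that starts sensory neurogenesis. Eya2 (29.9 ± 7.91 TPM), a cofactor in placodes and ganglia, Tlx3 (19.1 ± 2.80 TPM), Neurod1 (17.6 ± 4.58 TPM), Pou4f1 (16.7 ± 2.51 TPM) and Isl1 (14.7 ± 1.81 TPM) were also above 10 TPM. Of the neurotrophin receptors, Ntrk2 stood at 2.60 ± 0.435 TPM, and Ntrk3 at 0.276 ± 0.0868 TPM was not detected. The factors of later sensory subtypes, Runx1 (0.303 ± 0.141 TPM) and Runx3 (0.198 ± 0.225 TPM), were below 1 TPM in each embryo. Of 14 autonomic genes 12 were detected at low levels, with Gata3 at 18.7 ± 7.89 TPM, Gata2 at 9.87 ± 4.998 TPM, the enzyme Dbh of noradrenaline synthesis at 8.08 ± 1.92 TPM and Th at 2.30 ± 0.700 TPM. Gata3 was highest in embryo 1, at 31.1, 21.4, 16.3, 13.4 and 11.3 TPM.

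Of 16 glial precursor genes 9 were detected (56.25%), near the 47.6% of all protein-coding genes. The highest was Fabp7, a fatty acid binding protein also made by neural progenitors, at 163, 201, 186, 188 and 192 TPM. Fabp7 was lowest in embryo 1 and varied little among the others. Erbb3, the neuregulin receptor of crest glia, stood at 7.17 ± 1.54 TPM and the low-affinity neurotrophin receptor Ngfr at 6.37 ± 1.54 TPM. The genes of more mature Schwann cells were low, with Egr2 at 1.53 ± 1.24 TPM, S100b at 0.505 ± 0.378 TPM and Gfap at 0.151 ± 0.108 TPM, none of them detected. Of the crest lineage lists, that of pigment cells was the least complete, with 4 of 10 detected (40%). Pmel (35.2, 29.4, 14.9, 15.1 and 16.8 TPM) and Dct (4.23, 5.91, 2.08, 1.69 and 1.87 TPM), a melanosome protein and a melanin enzyme, were highest in embryos 1 and 2, and Kit, the receptor of melanoblasts, stood at 1.98 ± 0.253 TPM. Mitf (0.442 ± 0.165 TPM), the factor that specifies pigment cells, was below 1 TPM in each embryo, and Tyr had 0.0428 ± 0.0450 TPM.

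Neural tube genes of several regions were present. Neural progenitor genes had a summed level of 1469, 1609.5, 1946, 1747 and 1809 TPM, and 20 of 21 were detected. Beside Hes6, Sox11 and Fabp7 these were led by the intermediate filament gene Nes at 230.4, 227, 341, 319 and 360.0 TPM. Sox2 (10.3, 11.7, 21.9, 21.3 and 27.4 TPM) and Sox3 (8.46, 8.29, 21.2, 17.3 and 16.3 TPM), factors of dividing neural progenitors, were lower in embryos 1 and 2 than in the other 3, which did not overlap. Midbrain and hindbrain genes (18 of 22 detected) summed to 177, 169.7, 255.8, 179 and 181 TPM, highest in embryo 3 while the other 4 lay between 169.7 and 181 TPM. Wnt1, whose regulatory region drives the Cre, stood at 12.2, 12.5, 40.8, 18.1 and 17.2 TPM. It too was highest in embryo 3. Irx3 (29.4 ± 4.89 TPM), Irx2 (15.1 ± 1.40 TPM), Fgf8 of the isthmus (15.8 ± 5.17 TPM), Gbx2 of the anterior hindbrain (11.8 ± 1.43 TPM) and Otx2 of the midbrain (7.41 ± 1.72 TPM), En2 (6.56 ± 2.09 TPM), En1 (5.17 ± 1.29 TPM) and Pax5 (5.14 ± 1.66 TPM) were detected, while Pax2 (0.400 ± 0.175 TPM) and Pax8 (0.109 ± 0.0761 TPM) were below 1 TPM in each embryo.

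Dorsal neural tube genes were detected in 15 of 22 cases, among them Rspo1 (22.7 ± 3.03 TPM), Barhl1 (13.3 ± 3.92 TPM), Lmx1a (8.22 ± 1.03 TPM), Olig3 (7.35 ± 2.19 TPM) and Rspo3 (5.62 ± 0.774 TPM). The roof plate and dorsal interneuron genes Atoh1 (0.597, 1.88, 6.07, 3.09 and 2.36 TPM) and Wnt3a (0.596, 0.689, 3.12, 3.56 and 3.02 TPM) fell short in embryo 1, and Wnt3a also in embryo 2. Ventral neural tube genes were detected in 13 of 19 cases, although Wnt1-Cre is a dorsal driver along the trunk. Dbx1 (15.5 ± 3.67 TPM), Nkx6-2 (14.3 ± 3.74 TPM), Shh (7.92, 7.75, 14.3, 9.37 and 11.2 TPM), the signal of the floor plate, Nkx6-1 (5.57 ± 1.79 TPM), Olig2 (3 ± 0.627 TPM), Nkx2-2 (2.78 ± 1.40 TPM) and Foxa2 (2.12 ± 0.507 TPM) were among them. Shh was present in all 5 embryos and highest in embryo 3, as the midbrain and hindbrain sum was. Forebrain genes had the lowest regional sum, 37.0 ± 5.86 TPM, with 8 of 15 detected (53.3%), near the 47.6% of all protein-coding genes. The highest were Lhx2 at 6.61 ± 1.06 TPM and Pax6 at 6.02 ± 2.88 TPM. Six3, a gene of the anterior forebrain, stood at 1.40 ± 0.420 TPM.

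Receptor genes were headed by co-receptors and by receptors of mesenchyme. Gpc3, a glypican that binds growth factors at the membrane, was the highest at 311, 347, 253, 336 and 357 TPM, followed by Pth1r, the receptor of parathyroid hormone and its related peptide, at 430.3, 344, 181, 229 and 214 TPM, and Il11ra1, the interleukin 11 receptor, at 326, 266, 121, 152 and 159 TPM. Pth1r and Il11ra1 were highest in embryos 1 and 2, and Gpc3 exceeded Pth1r in 4 of 5 embryos. The semaphorin receptor Plxnb2 (116 ± 20.4 TPM) and the Wnt receptor Fzd2 (96.4 ± 20.7 TPM) came next, in this order in 5 of 5 embryos. Then came the integrin subunit Itgb5 (94.8 ± 19.1 TPM) and the syndecan Sdc1 (92.6 ± 7.16 TPM), which were not separated. Robo3, an axon guidance receptor of commissural neurons, was at 137, 92.1, 37.2, 32.8 and 31.03 TPM, with embryos 1 and 2 far above the others. Acvr2b, an activin receptor, was at 24.6, 57.7, 75.3, 64.2 and 65.6 TPM, with embryo 1 below the other 4. Lower in the top 25 were Lpar1 (56.3 ± 18.4 TPM), Ryk (55.0 ± 5.44 TPM), Itgb1 (51.6 ± 5.33 TPM), Adgrg1 (50.6 ± 5.41 TPM), F2r (49.9 ± 8.01 TPM), Il3ra (49.5 ± 19.04 TPM), Plxnb1 (48.0 ± 5.47 TPM), Gas1 (30.6 ± 2.49 TPM) and S1pr3 (29.1 ± 13.9 TPM).

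By family, beside 36.0% of receptors as a whole, the detected genes were 9 of 11 plexins and neuropilins, 10 of 14 Eph receptors, 10 of 14 TGF-beta family receptors, 5 of 7 Hedgehog receptors, 3 of 4 Notch receptors, 9 of 27 integrins and 47 of 232 G protein-coupled receptors. Differences between families were not tested. Among receptor tyrosine kinases, of which 22 of 41 were detected, the 2 receptors of platelet-derived growth factor were unequal. Pdgfrb stood at 48.4, 51.0, 29.7, 28.6 and 34.0 TPM and Pdgfra, the receptor of facial crest mesenchyme, at 7.92, 10.3, 5.41, 6.30 and 6.799 TPM, a ratio of 4.54 to 6.11. Erbb2 (23.7 ± 3.57 TPM) exceeded its partner Erbb3 in each embryo, by 2.60 to 5.24 times. The fibroblast growth factor receptors Fgfr3 (16.2 ± 1.35 TPM), Fgfr1 (10.2 ± 1.49 TPM) and Fgfr2 (9.82 ± 1.61 TPM) were detected, and Fgfr4 (0.543 ± 0.183 TPM) was not. Of the endothelin receptors, Ednrb, of neural and pigment lineages, stood at 27.3, 18.4, 18.7, 14.98 and 14.6 TPM and Ednra, of arch mesenchyme, at 3.91 ± 1.83 TPM, with Ednrb 2.64 to 8.68 times higher. The glial cell line derived factor receptor Ret (2.86 ± 0.650 TPM) and the hepatocyte growth factor receptor Met (0.628 ± 0.159 TPM) were low, and Met was not detected. Among guidance and chemokine receptors Ephb4 (59.5 ± 12.8 TPM), Ephb3 (24.04 ± 7.67 TPM), Ephb2 (19.6 ± 2.07 TPM), Cxcr4 (22.4 ± 6.30 TPM), Nrp1 (10.46 ± 0.420 TPM) and Nrp2 (8.02 ± 1.22 TPM) were detected. For Wnt and Hedgehog signals, Fzd9 (15.5 ± 1.68 TPM), Fzd7 (14.5 ± 2.35 TPM), Smo (20.5 ± 2.23 TPM), Boc (23.1 ± 5.92 TPM) and Ptch1 (5.53 ± 0.478 TPM) were detected, and Fzd2 exceeded Fzd9 by 4.50 to 7.85 times. Notch2 (8.53 ± 1.31 TPM) and Notch3 (6.29 ± 1.18 TPM) were detected while Notch1, at 1.49 ± 0.419 TPM, fell short in embryo 1.

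A single gene dominated the ligands. Mdk, the heparin-binding growth factor midkine, was at 3107, 3546, 3567, 3701 and 3799 TPM, close between embryos and far above its relative pleiotrophin, Ptn, at 326, 251, 195, 181 and 189.5 TPM. The ratio of Mdk to Ptn ran from 9.53 to 20.5, and Ptn was highest in embryo 1. Efna4, an ephrin, was at 228 ± 46.5 TPM, and all 8 ephrin genes were detected, among them Efna2 (32.1 ± 3.05 TPM), Efnb3 (25.4 ± 1.29 TPM) and Efnb1 (24.7 ± 3.74 TPM). Cyr61 (74.9 ± 21.1 TPM), Sema6c (63.1 ± 26.8 TPM), Gdf11 (44.4 ± 1.98 TPM) and Sema3f (42.6 ± 21.2 TPM) followed, with Sema6c and Sema3f highest in embryos 1 and 2. Of 23 Wnt and R-spondin genes 13 were detected, led by Wnt4 (33.9 ± 8.90 TPM), Rspo1 and Wnt1, and of 22 Fgf genes 3 were, led by Fgf17 (26.6 ± 7.51 TPM) and Fgf8. Pdgfa, the ligand of Pdgfra, varied, at 7.67, 18.2, 25.9, 36.7 and 39.4 TPM, with embryo 1 the lowest. Cxcl14 varied more, at 56.1, 34.8, 3.47, 15.5 and 14.5 TPM, and was lowest in embryo 3. Igf2 stood at 47.0 ± 8.48 TPM, but 64.5% of its exonic bases are shared with another annotated gene.

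Matrix and adhesion genes were broadly detected at moderate levels. Of 32 matrix genes 28 were detected, with a median of 8.33 TPM, and their sum was 472, 474, 287, 315 and 356 TPM, higher in embryos 1 and 2 than in the other 3. Sparc, a collagen-binding protein, led at 96.9, 82.9, 48.6, 62.0 and 68.4 TPM, followed by Col18a1 (37.9 ± 5.36 TPM), Agrn (26.2 ± 6.04 TPM), Col3a1 (24.4 ± 6.69 TPM) and Col1a2 (22.1 ± 10.2 TPM). The collagen I genes Col1a1 (24.4, 21.7, 5.67, 10.4 and 9.80 TPM) and Col1a2 (33.1, 33.1, 12.9, 14.7 and 16.6 TPM) were both near their highest in embryos 1 and 2. Fibronectin, Fn1, on which crest cells migrate, stood at 18.4 ± 2.44 TPM. Vim, the filament of mesenchymal cells, stood at 436 ± 38.8 TPM, Mmp14, a membrane protease used in migration, at 125 ± 37.9 TPM, N-cadherin, Cdh2, at 51.4 ± 6.38 TPM and Ncam1 at 52.4 ± 20.8 TPM. The crest cadherins Cdh6 (2 ± 0.661 TPM) and Cdh11 (4.86 ± 1.06 TPM) were lower, and Cdh7 was at 0.0788 ± 0.0327 TPM.

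Of 21 genes of cartilage and bone 9 were detected (42.9%), near the 47.6% of all protein-coding genes, and 8 had a mean below 1 TPM. Beside Pth1r and Sox9, the early cartilage collagens Col2a1 (22.6 ± 3.29 TPM), Col9a3 (18.8 ± 8.80 TPM) and Col9a1 (17.3 ± 1.90 TPM) were detected, while Comp (0.215 ± 0.226 TPM) and Ibsp (0.136 ± 0.126 TPM), of mature cartilage and bone, were below 1 TPM. The bone factor Runx2 varied, at 5.87, 2.69, 0.414, 0.597 and 0.643 TPM, from detected in embryos 1 and 2 to below 1 TPM in the others. Contractile genes shared with other cells were high, with Cnn2 at 277 ± 55.9 TPM, Tpm2 at 252 ± 77.2 TPM and Myl9 at 110.5 ± 37.1 TPM. Of the smooth muscle genes proper, Acta2 stood at 23.3 ± 4 TPM and Cnn1 at 2.61 ± 1.08 TPM. Myh11 at 0.0438 ± 0.0629 TPM and Myocd at 0.121 ± 0.122 TPM were not detected. Tagln was at 1.005 ± 0.963 TPM, with 67.9% of its exonic bases shared with another gene.

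Genes of the cell cycle were all detected, 24 of 24 for the G1/S and 24 of 24 for the G2/M list. The G1/S sum was 1302, 1628, 1797, 1780.0 and 1842 TPM and the G2/M sum 1714, 2091, 2342, 2139 and 2194 TPM. Embryo 1 was lowest for both, and the other 4 lay closer together. Cdk4 (358 ± 72.2 TPM), Mcm6 (188 ± 11.5 TPM), Birc5 (308 ± 20.4 TPM), Tacc3 (291 ± 31.4 TPM) and Mki67 (105 ± 7.71 TPM), the common marker of dividing cells, led or were near the top. Of the inhibitors of cyclin-dependent kinases, the imprinted Cdkn1c was at 527, 479, 392, 460.2 and 417 TPM, far above Cdkn2d (54.3 ± 6.10 TPM), Cdkn1b (6.09 ± 0.726 TPM) and the p53 target Cdkn1a (5.14 ± 0.949 TPM). Cdkn2a (0.451 ± 0.525 TPM) was not detected. Cdkn1c shares 30.7% of its exonic bases with another gene. Among other imprinted genes H19, a non-coding RNA, stood at 473, 712, 548, 753 and 744 TPM, Ndn at 120.1 ± 7.78 TPM and Grb10 at 93.7 ± 7.39 TPM, and 19 of 24 were detected. Of the non-coding RNA genes listed, Epb41l4aos (798 ± 133 TPM), Gas5 (309 ± 41.8 TPM) and Snhg5 (246 ± 36.02 TPM) led with H19, while Neat1 (0.190 ± 0.128 TPM) and Hotair (0.160 ± 0.221 TPM) were below 1 TPM in each embryo.

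Markers of cell types that the sort was not meant to collect differed in level. Red blood cell genes were the main such signal, with a sum of 9155, 5195, 2809.7, 14258 and 13559 TPM over 13 genes, lowest in embryo 3 and highest in embryos 4 and 5. It was carried by the embryonic globins Hbb-y (4749, 2248, 1131, 6201 and 6136 TPM), Hbb-bh1 (986, 863, 737, 3279.6 and 3259 TPM) and Hba-x (1351 ± 809.6 TPM) and by Hba-a1 (1494 ± 709 TPM), while the red cell factor Klf1 was at 0.920 ± 0.567 TPM. Of 12 endothelial genes 2 were detected, Egfl7 and Cldn5, with sums of 57.4 to 107 TPM, and the defining Cdh5 was 0 in embryos 2 and 3. Of 14 macrophage genes 5 were detected, led by C1qa (49.1, 17.2, 3.62, 11.4 and 16.4 TPM), with sums of 28.7 to 141 TPM, highest in embryo 1 and with Ptprc at 0 in embryos 1 and 2. Of 14 epithelial genes 10 were detected, led by Krt18 (72.2, 68.7, 88.4, 138 and 138 TPM) and Krt8 (38.5 ± 15.5 TPM), with sums of 118 to 268 TPM, highest in embryos 4 and 5 and with Epcam at 5.48, 3.21, 2.57, 9.36 and 12.6 TPM. Heart muscle genes (7 of 12 detected, 58.3%) summed to 177 to 295 TPM, led by Tnnc1 (111 ± 17.2 TPM) and Myl7 (51.5 ± 22.2 TPM). Endoderm genes (4 of 10, 40%) summed to 80.1 to 254.5 TPM, led by Ttr at 142, 164, 27.97, 47.4 and 40.3 TPM, which was higher in embryos 1 and 2. Somite genes (6 of 11, 54.55%) summed to 58.1 to 79.97 TPM and pluripotency and germ cell genes (1 of 9) to 3.66 to 11.8 TPM. The shares for heart muscle, endoderm and somite genes lay near the 47.6% of all protein-coding genes. The part of such cells in the levels of shared genes was not tested. Of the 13 immediate early and stress genes, which can rise during dissociation, Ier2 was high at 603, 512, 836, 646 and 565 TPM and Fos was at 1.99, 0.485, 7.37, 3.46 and 0.994 TPM, both highest in embryo 3.

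The embryos were alike for most genes. Over the 8122 genes with a mean of 10 CPM or more, the SD had a median of 13.7% of the mean, 12.9% once counting error was taken off, and 108 genes (1.33%) had a SD over 50% of the mean. This count moves with single embryos, and was 70 without embryo 1, 163 without embryo 2 and 58 without both. Of the 108, 12 were pseudogenes. Embryos 1 and 2 were the 2 highest embryos in 53 of the 108 and the 2 lowest in 21. Over all 11500 detected genes they were the 2 highest in 22.8% and the 2 lowest in 17.6%, where the other 9 pairs of embryos ranged from 2.79 to 14.3% for the 2 highest and from 3.63 to 19.8% for the 2 lowest. The pair was singled out after earlier results of these data. Of 33 groups of genes (the fixed lists and the Hox genes), it held the 2 highest levels for more genes than the 2 lowest in 14, the reverse in 14 and as many of both in 5. It held the 2 highest levels for 18 of 28 detected matrix genes, 15 of 27 arch mesenchyme genes and 10 of 21 neuron genes, and the 2 lowest for 11 of 20 neural progenitor genes, 13 of 24 G1/S genes and 8 of 20 Hox genes. Crest specifiers were even, with 5 of 20 for the 2 highest and 5 for the 2 lowest, and sensory neuron genes, with 2 and 5 of 13, went against the general neuron genes. The ratio of TPM of the embryonic globins Hbb-y to Hbb-bh1 was 4.82, 2.61, 1.54, 1.89 and 1.88, highest in embryos 1 and 2. Lin28a, an RNA-binding protein, was at 1.65, 3.76, 13.5, 9.85 and 10.2 TPM, lowest in these embryos, and was chosen after its values were seen. Over whole profiles embryo 2 lay about as near to the other embryos as to embryo 1. Its Pearson's r was 0.9792 with embryo 1 and 0.9734, 0.9783 and 0.9775 with embryos 3, 4 and 5. For embryo 1, r with embryos 3, 4 and 5 was 0.9619, 0.9691 and 0.9643. Chi-square divided by its degrees of freedom was 25.99 between embryos 1 and 2. For embryo 2 with embryos 3, 4 and 5 it was 26.45, 25.87 and 20.23. The labels give the same day for all 5 embryos, and the cause of the division was not tested.

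Some single genes with the same division, beside Robo3 and Runx2, are given as examples only. Col6a3 was named for its large spread, and Dkk2, Postn and Prtg were chosen after their values were seen. Their levels are therefore no further support for the division. Col6a3, a matrix gene, was at 30.97, 16.5, 4.98, 5.24 and 5.44 CPM, Dkk2, a Wnt inhibitor, at 335, 290.1, 94.2, 89.5 and 97.5 CPM and Postn, periostin, at 61.4, 43.5, 16.1, 16.5 and 18.6 CPM. All 3 were highest in embryo 1 and next in embryo 2. Prtg, protogenin, ran the other way at 10.7, 21.5, 104, 54.9 and 52.0 CPM. Sex gave a second division, with Xist, made from the inactive X chromosome, high in embryos 2 and 5 (0.785, 684, 1.06, 0.632 and 472 CPM) and the Y-linked Ddx3y high in embryos 1, 3 and 4 (81.8, 0, 70.3, 49.6 and 0.0726 CPM). The most variable gene that shares no 31-base word with another gene was Pop4, a subunit of ribonuclease P, at 6.73, 7.84, 9.10, 46.2 and 9.87 CPM.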

How the data were processed

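The submitters' processing notes name the GRCm38 build with HTSeq 0.6.1 and HISAT2 2.0.4, and also DESeq2 1.14.1 and SAMtools 1.3.1, without their roles. The authors deposited raw counts per gene. For the annotation release, the strand setting and multiply aligned reads, the choice made is not given in the sources used here. CPM was computed from total counts, and TPM with union exon lengths from GENCODE M21, which held 99.48% of the listed genes. TMM and RLE factors came from edgeR 4.0.16, and the computation used pandas 2.3.3 and Biopython 1.88. No genes or groups were compared by a test, and the spread computation was tested on simulated data. The main results with a value per embryo and the named genes were screened for a distant embryo by Dixon's criterion. The sex-linked Xist and Ddx3y, the other sums and the ratios were not screened. A SD over 50% of the mean counts as large among genes with a mean of 10 CPM or more.

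The members, lists and the division of embryos 1 and 2 were chosen with earlier results of these data known. Named genes were the 20 highest by CPM and by TPM, the 30 highest transcription factors, up to 8 highest members of each list and stated low members, all Hox and Dlx genes at 1 TPM or more, the 25 highest receptors and 15 highest ligands with family members, the 15 most variable genes and the markers. Other named genes were chosen after their values were seen. Alternatives covered scaling, gene length, detection, averaging and omitted embryos. The 5 libraries with p53 activation were left out by design. A few list members were counted but are not reported here by name.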

Additional observations from a re-analysis of the deposited data

Results flagged for a closer look

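In 22 of 318 values screened (6.92%), 1 embryo lay far from the other 4, with a gap that takes up most of the whole range (Dixon's criterion). Chance gives about 1 in 20 for a value taken without regard to its spread. The 318 include genes named for their spread or after their values were seen, and all share the same 5 embryos, so their share is a description and is not read against that rate. Embryo 1 was the distant one in 9, embryo 3 in 7, and embryos 2, 4 and 5 in 2 each. Embryo 1 had the highest share of counts in the 10 most abundant genes, 10.14% against 9.30 to 9.53%. It was lowest for Sox4 (27.99 TPM against 114 to 129 TPM), Cdk4 (233.2 TPM), Id3 (62.42 TPM), Tcf3 (106.8 TPM), Usf2 (67.77 TPM) and Pax2 (0.09363 TPM). It was highest for Runx3 (0.5821 TPM) and Myocd (0.3351 TPM).

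Embryo 3 had the highest sum of midbrain and hindbrain genes, 255.8 TPM against 169.7 to 181 TPM. It was also highest for Wnt1 (40.76 TPM against 12.3 to 18.1 TPM), Neurog1 (52.32 TPM), E2f1 (117 TPM), Ptprc (0.0811 TPM), mt-Atp6 (1.786 CPM) and the mitochondrial-like pseudogene Gm28438 (36.15 CPM). Embryo 2 was lowest for Ptma (4434.2 CPM) and highest for Syt1 (0.7074 TPM). Embryo 4 was highest for Pop4 (46.17 CPM) and Rps2 (1519.7 CPM), and embryo 5 for Gm8730 (953.5 CPM) and Hoxb2 (0.9578 TPM).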

How the results depend on the processing

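Of 139 alternative values of the 12 main results, 9 moved beyond the spread between embryos or, for counts of genes, beyond 1.5 times. With the longest transcript as gene length, the neuron sum was 913.6 TPM in place of 1052.0 TPM. With any count as detection, 24495 genes, 748 transcription factors, 416 receptors and 39 Hox genes were detected. The 108 genes with a large spread became 70 without embryo 1, 163 without embryo 2 and 58 without both, and 1072 at a mean of 1 CPM or more. The cause was not tested. Leaving out each embryo in turn gave 11619 to 11743 detected genes, 439 to 452 transcription factors, 171 to 178 receptors, 20 to 22 Hox genes and 70 to 163 genes with a large spread. It gave 9.43 to 9.64% of counts in the 10 most abundant genes, 0.117 to 0.136% in mitochondrial genes and 18.3 to 18.4% in ribosomal protein genes. The sums ran from 493.3 to 526.4 TPM for crest specifiers, 898.6 to 1048.0 TPM for arch mesenchyme, 1024.6 to 1081.5 TPM for neurons and 176.6 to 198.2 TPM for midbrain and hindbrain. Of 313 named genes none moved by more than 1 SD with TMM or RLE factors, and of the 283 given in TPM, 108 did with the longest transcript as gene length. Gene length does not enter the shares of counts or the spread. It does enter the orders and ratios of TPM between genes, which were not computed again with the longest transcript. No paired analysis was possible because a single group was described. Depth limits levels near 1 TPM.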
